A study of Mus musculus with 4 samples.

Results

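Gene expression in Hdac3-null LSK/Flt3- bone marrow cells was compared with that in wild-type cells of the same sorted fraction. The comparison rests on 3 of the series' 4 arrays, chosen by their titles: 2 arrays of null LSK/Flt3- cells (replicates 1 and 2) and 1 array of wild-type LSK/Flt3- cells. The remaining array, of wild-type LSK/Flt3+ cells, served as a second wild-type reading beside each value. The null mice had the genotype Vav-Cre/Hdac3Flox/-, in which a Cre recombinase under the Vav promoter, active in blood cells, acts on a floxed Hdac3 allele opposite an allele already lost. All mice were of the C57BL/6 background, and the other 2 arrays came from wild-type mice, for which the labels name no Cre. Each sample was total RNA of flow-sorted marrow cells pooled from 5 to 30 mice. Neither the age of the mice nor whether separate mice supplied the 2 null pools is stated in the labels. The p-values therefore reflect the scatter of these particular samples, part or all of which may be technical.

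Hdac3 encodes a histone deacetylase that is active within the NCoR and SMRT corepressor complexes, which nuclear receptors and other transcription factors bring to the genes they hold silent. LSK cells, which lack mature lineage antigens and carry Sca-1 and Kit, are the marrow fraction that holds blood stem cells and the earliest progenitors. Within it, cells without the cytokine receptor Flt3 include the stem cells and progenitors with myeloid, erythroid and megakaryocytic potential, whereas Flt3+ cells have gained lymphoid potential and largely lost the latter. The study's title names DNA replication and differentiation of these cells as its subject.

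The values are log2 expression levels per gene, from 1 probe set for each of 19938 genes, and every difference is null minus wild-type LSK/Flt3- unless stated. The arrays differed in their overall shape. Over all genes the median difference from wild-type LSK/Flt3- was 0.15 on null replicate 1, 0.03 on null replicate 2 and 0.04 on the wild-type LSK/Flt3+ array. The offset of replicate 1 depended on level: it was 0.28 for the 4499 genes at a level of 4 to 5 in wild-type LSK/Flt3- cells and -0.12 for the 1573 genes at 8 to 9. On replicate 2 the corresponding medians were 0.04 and -0.03. A small positive difference of a dim gene on replicate 1 was therefore no larger than the offset of its level class. The part of this offset in any result was not tested beyond the alternative scalings reported with the results.

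**Figure D1:**
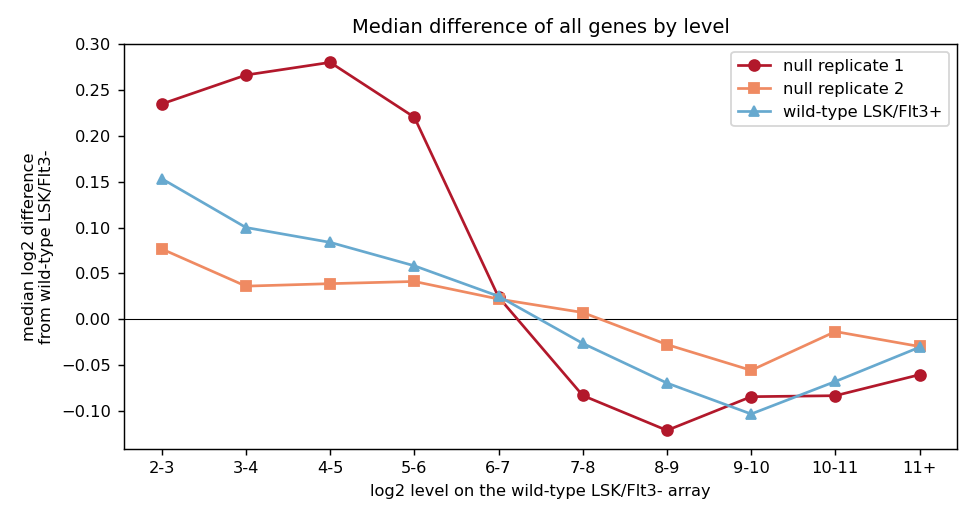
Median log2 difference from wild-type LSK/Flt3- over all genes (vertical axis), in classes of the gene's log2 level on the wild-type LSK/Flt3- array (horizontal axis), for null replicate 1 (circles), null replicate 2 (squares) and wild-type LSK/Flt3+ (triangles). Replicate 1 passes from 0.28 in the class 4 to 5 to -0.12 in the class 8 to 9, while replicate 2 stays between 0.08 and -0.06.

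Hdac3 itself stood at 5.71 and 5.04 on the null arrays, with 6.18 and 6.33 on the LSK/Flt3- and LSK/Flt3+ wild-type arrays. Both null values lay below both wild-type values (log2 difference -0.81 ± 0.38, SE; limma, adjusted p = 1). The position of its probes relative to the deleted part is not stated in the labels or files, and the gene gives no check of the labels. Among the 20 measured genes nearest to Hdac3 in gene order, 10 on each side, 0 were 2-fold apart on both null arrays. Their differences ran from -0.47 for Slc25a2 to 0.79 for Arap3, with a median of 0.04.

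The sorted fraction carried its defining transcripts on all arrays where they were measured. Kit, the stem cell factor receptor, stood at 10.77 and 10.36 on the null arrays and 10.25 and 10.11 on the wild-type arrays. Cd34 stood at 9.77 and 9.90 against 10.34 and 10.58. Sca-1 has no probe set of its own symbol among those used and was not analysed here. The 8 measured antigens of the lineage cocktail had mean levels of 4.70 and 4.51 on the null arrays and 4.45 and 4.68 on the wild-type LSK/Flt3- and LSK/Flt3+ arrays, and 0 of the 8 were 2-fold apart on both null arrays in either direction. Flt3 RNA, the marker that splits the fraction, stood at 7.84 and 7.02 on the null arrays, 9.18 in wild-type LSK/Flt3- cells and 10.07 in LSK/Flt3+ cells.

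A gene was counted as 2-fold apart when its log2 difference was at least 1 in 1 direction on each null array separately. This holds for 50 genes that were higher in null cells (0.251% of all genes) and 76 that were lower (0.381%). It is a description by size, with no test. Of the 50 higher genes, 48 lay above both wild-type arrays on both null arrays, and 26 were also 2-fold above wild-type LSK/Flt3+. Of the 76 lower genes, 75 lay below both wild-type arrays and 41 were also 2-fold below wild-type LSK/Flt3+. The 2 sets differed in level: the median wild-type LSK/Flt3- level was 6.16 for the higher genes and 7.49 for the lower genes. The null replicates were within 0.5 of each other for 37 of the 50 and 56 of the 76. Centring each array on its median, which moves the median difference of all genes by -0.12, gave 38 higher and 103 lower genes, a share of 27.0% higher instead of 39.7%.

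In the limma fit, 4 genes rose with an adjusted p under 0.05 (0.0201% of all genes) and 0 fell (0%), while 219 were higher (1.1%) and 259 lower (1.3%) at an unadjusted p under 0.05. With robust estimation 12 genes were called higher and 13 lower. After quantile normalization 0 were called higher, with limma adjusted p of 0.131 for Xist and BC018473. In direction alone, 8240 genes (41.3%) were higher on both null arrays, 3963 (19.9%) were lower on both, and 7735 had opposite signs. For genes other than the 4 called, levels are given as measured, without a call.

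**Figure D2:**
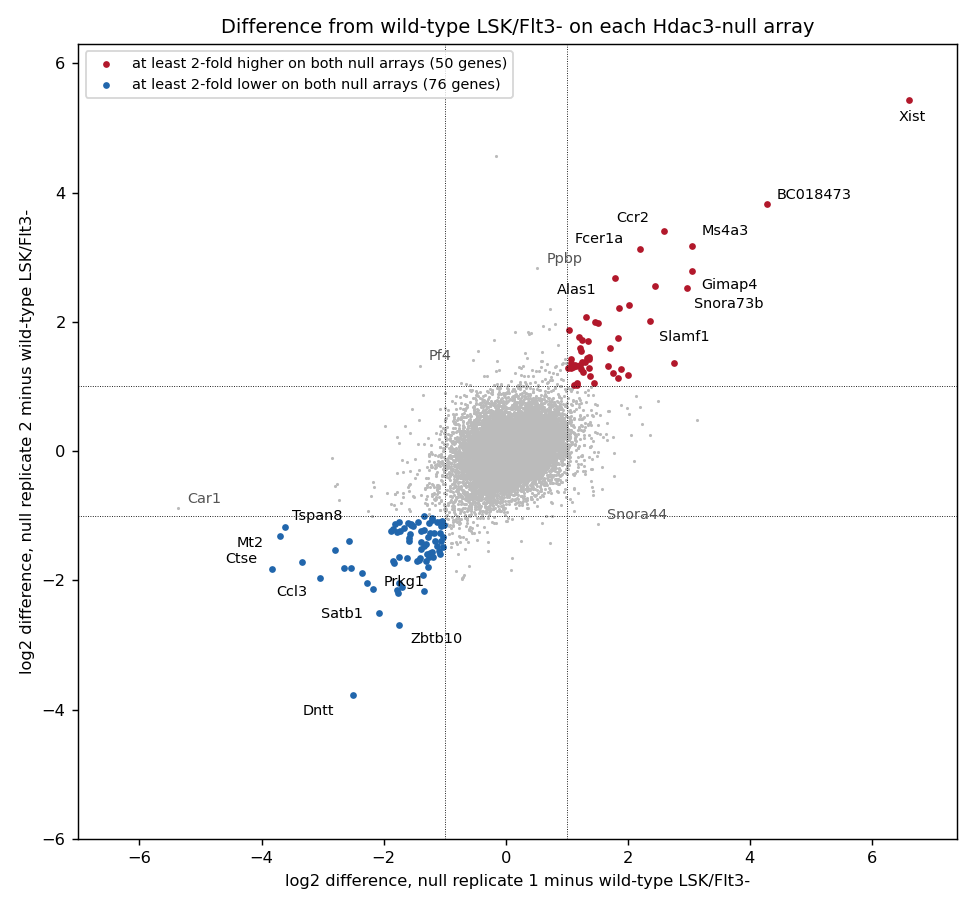
Log2 difference from wild-type LSK/Flt3- of each gene on null replicate 1 (horizontal axis) and null replicate 2 (vertical axis), with dotted lines at a 2-fold difference. The 50 genes past both lines upward (red) and the 76 past both downward (blue) stand apart from the bulk near 0. Car1, Pf4, Ppbp and Snora44, labelled in grey, differ mainly on one null array or have opposite signs on them.

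The promoters below are those of the first 3 protein-coding genes in each direction, ranked by the smaller of their 2 differences, that have a single start in the RefSeq table for GRCm38.p6. They are shown because promoters are among the places where transcription factors that recruit corepressors bind. Each run holds the 250 bases before the start, read 5′ to 3′ on the gene's own strand. Capitals mark a match to one of the motifs searched and lower case the rest. The first 3 belong to genes that were higher in null cells and the last 3 to genes that were lower.
Ms4a3, chr19:11640852-11641101, minus strand: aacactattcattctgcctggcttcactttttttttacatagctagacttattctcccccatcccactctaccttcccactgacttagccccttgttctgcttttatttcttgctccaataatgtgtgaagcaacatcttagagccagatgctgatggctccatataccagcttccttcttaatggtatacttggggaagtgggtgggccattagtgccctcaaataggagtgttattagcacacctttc
Gimap4, chr6:48684328-48684577, plus strand: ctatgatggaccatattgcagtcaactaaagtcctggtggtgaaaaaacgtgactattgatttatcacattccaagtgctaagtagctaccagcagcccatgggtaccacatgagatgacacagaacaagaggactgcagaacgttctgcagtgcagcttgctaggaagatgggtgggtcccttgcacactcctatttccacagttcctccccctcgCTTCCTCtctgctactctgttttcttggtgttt
Ccr2, chr9:124101933-124102182, plus strand: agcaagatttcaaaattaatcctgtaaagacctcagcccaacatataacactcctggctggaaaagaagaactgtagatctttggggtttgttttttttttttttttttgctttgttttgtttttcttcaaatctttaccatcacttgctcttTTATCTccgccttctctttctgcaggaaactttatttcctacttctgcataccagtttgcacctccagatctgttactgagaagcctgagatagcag
Dntt, chr19:41029025-41029274, plus strand: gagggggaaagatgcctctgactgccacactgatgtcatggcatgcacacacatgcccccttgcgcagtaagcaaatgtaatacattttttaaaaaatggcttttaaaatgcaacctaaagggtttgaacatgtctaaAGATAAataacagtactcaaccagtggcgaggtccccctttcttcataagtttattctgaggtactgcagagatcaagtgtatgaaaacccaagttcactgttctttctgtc
Camsap2, chr1:136346105-136346354, minus strand: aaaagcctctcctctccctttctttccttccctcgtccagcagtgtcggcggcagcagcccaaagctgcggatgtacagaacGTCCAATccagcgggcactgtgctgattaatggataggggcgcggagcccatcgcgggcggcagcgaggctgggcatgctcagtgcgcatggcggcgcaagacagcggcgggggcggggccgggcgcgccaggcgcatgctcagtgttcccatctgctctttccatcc
Ccl3, chr11:83649379-83649628, minus strand: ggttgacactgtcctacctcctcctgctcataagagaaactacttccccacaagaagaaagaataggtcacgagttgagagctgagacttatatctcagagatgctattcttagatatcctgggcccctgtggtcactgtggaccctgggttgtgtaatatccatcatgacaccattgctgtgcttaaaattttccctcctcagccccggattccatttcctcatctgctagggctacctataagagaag

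The match in Gimap4 is the PU.1 motif GAGGAAG on the opposite strand, and that in Camsap2 the NF-Y motif ATTGGNC on the opposite strand. Ccr2 and Dntt each hold a GATA motif (AGATAA), on the opposite and the gene's own strand. The windows of Ms4a3 and Ccl3 hold none of the 10 motifs searched. Both strands were read, the motifs were counted independently where they overlap, and a match is a description of the letters and no evidence of binding. Windows of 250 bases were available for 34 of the 50 higher genes, 63 of the 76 lower genes and 15614 of all genes. The PU.1 motif was in 20.6% of the higher (7), 17.5% of the lower (11) and 10.3% of all windows. The RUNX motif TGTGGTT was in 14.7% of the higher (5), 3.2% of the lower (2) and 3.7% of all windows. The MYB motif AACNGTT was in 11.8%, 6.3% and 3.2%, and the AP-1 motif TGANTCA in 11.8%, 4.8% and 6.1%. GATA motifs were in 8.8%, 9.5% and 8.7%, the E2A motif CAGGTG in 20.6%, 12.7% and 16.6%, the E-box CACGTG in 11.8%, 9.5% and 7.0%, and NF-Y in 8.8%, 12.7% and 12.9%. The E2F motif TTGGCGC was in 0 of the 34 and 0 of the 63 windows and in 2.8% of all, and the CRE TGACGTC was in 0 of the 34, 2 of the 63 and 3.7% of all. Most of these shares rest on fewer than 10 windows.

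Genes of neutrophil and monocyte precursors were prominent among those higher in null cells. Ms4a3, a membrane protein of granulocyte-monocyte progenitors, stood at 10.08 and 10.20 on the null arrays against 7.03 and 7.34 on the wild-type LSK/Flt3- and LSK/Flt3+ arrays. It rose 8.66-fold, with replicates that differed far less than the groups (log2 difference 3.11 ± 0.35, SE; limma, adjusted p = 0.0321). The call was lost under 4 of 9 other settings, those that rescaled the arrays or tested every probe set, with limma adjusted p of 0.0539 to 0.326. Ctsg, the granule protease cathepsin G, stood at 10.27 and 10.73 against 8.75 and 9.20. Prtn3, the protease proteinase 3 of the same granules, stood at 7.86 and 8.63 against 6.55 and 6.97. Both null values of these 3 genes lay above both wild-type values. Mpo, the myeloperoxidase of the same granules, was already high in wild-type cells, at 11.35 and 11.47, and stood at 12.12 and 12.30 in null cells. Elane, neutrophil elastase, was uneven between the null arrays, at 6.61 and 7.77 against 5.80 and 6.16.

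Of the 18 measured genes of azurophil granules and their progenitor stage, 4 were 2-fold higher on both null arrays (Ms4a3, Ctsg, Prtn3 and the membrane protein gene Igsf6) and 0 were 2-fold lower. With another 10 higher by less, 14 were higher on both and 2 lower, beside 41.3% and 19.9% of all genes, and 2 had opposite signs. The median difference was 0.35 on replicate 1 and 0.89 on replicate 2, against 0.15 and 0.03 for all genes, and it was 0.41 on the wild-type LSK/Flt3+ array. The transcription factors of the same lineage did not show a like pattern in size. Of 16 measured myeloid regulators, 0 were 2-fold apart on both null arrays, 6 were higher and 6 lower on both. Cebpa, the factor that opens granulocyte fate, stood at 7.61 and 7.74 in null cells, 6.92 in wild-type LSK/Flt3- cells and 7.74 in LSK/Flt3+ cells, so its null levels lay close to the higher of the wild-type values. In bulk samples such as these, a larger share of cells of a type and more RNA per cell cannot be told apart.

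Other genes of the myeloid branch differed in both directions. Anxa3, an annexin of neutrophil granule membranes, stood at 8.50 and 8.86 in null cells, 6.64 in wild-type LSK/Flt3- and 7.91 in LSK/Flt3+ cells. Cd68, a lysosomal protein of monocytes and macrophages, stood at 8.02 and 8.38 against 6.95, but at 8.54 in wild-type LSK/Flt3+ cells, above both null values. Pglyrp1, an antibacterial granule protein, stood at 7.39 and 8.22 against 6.35 and 6.70. The secretory protease inhibitor gene Slpi stood at 7.47 and 7.94 against 6.22 and 6.94. Ncf4, a subunit of the oxidase that makes superoxide in phagocytes, stood at 6.56 and 6.67 against 5.34 and 6.17. S100a8, whose product forms a calcium-binding dimer with S100a9 in mature neutrophils, went the other way, at 6.59 and 7.07 against 8.19 in wild-type LSK/Flt3- cells, while the LSK/Flt3+ array read 6.12. S100a9 likewise stood at 7.51 and 7.35 against 8.48, with 7.12 in LSK/Flt3+ cells. For this pair the wild-type LSK/Flt3- array was the high one and both null values lay nearer to the other wild-type fraction. Among the 24 measured genes of mature neutrophils and monocytes, 1 was 2-fold higher and 1 lower on both null arrays.

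Receptors of myeloid cells made up a further group. Ccr2, the receptor through which monocytes follow the chemokine Ccl2, stood at 8.28 and 9.10 on the null arrays, against 5.69 and 6.54. The difference was 7.98-fold (log2 3.0 ± 0.42, SE; limma, adjusted p = 0.107). Csf2rb, the signalling chain shared by the receptors for IL-3, IL-5 and GM-CSF, stood at 8.06 and 7.97 against 6.22 and 6.44. Csf2rb2, its IL-3-specific neighbour and close paralog, stood at 7.58 and 7.47 against 5.87 and 6.19. The replicates of this pair differed by less than 0.2 and the groups did not overlap. Their probes may cross-hybridise. Csf3r, the G-CSF receptor, was less far apart, at 7.18 and 7.01 against 6.49 and 6.62. Receptors of the lymphoid side were lower: Il18r1, an interleukin-18 receptor chain, stood at 5.08 and 4.84 against 6.54 and 6.87, and Il7r, the interleukin-7 receptor, at 4.39 and 4.03 against 4.96 and 6.34. Of the 21 measured cytokine receptors, 2 were 2-fold higher and 2 (Il18r1 and Flt3) 2-fold lower on both null arrays. Among 21 chemokine and chemoattractant receptors, Ccr2 was the single member 2-fold higher and 0 were lower.

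Some genes of mast cells and basophils were higher too. Fcer1a, the IgE-binding chain of the high-affinity receptor, stood at 6.51 and 7.44 against 4.31 and 5.53 (log2 difference 2.66, limma, adjusted p = 0.149). Its partner chain Ms4a2 stood at 5.89 and 6.07 against 5.09 and 5.65, and the protease gene Gzmb (granzyme B) at 6.07 and 6.43 against 4.72 and 4.59. In contrast Cpa3, the mast cell carboxypeptidase, stood at 7.25 and 7.62 against 8.17 and 7.71, below both wild-type values. Of 19 measured genes of these cells, 3 were 2-fold higher on both null arrays (Fcer1a, Gzmb and Csf2rb, the last also counted among the cytokine receptors) and 0 were 2-fold lower. With another 8 higher by less, 11 were higher on both and 5 lower, beside 41.3% and 19.9% of all genes. The remaining 3 had opposite signs. The list's medians were 0.37 on replicate 1 and 0.12 on replicate 2, against 0.15 and 0.03 for all genes.

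**Figure D3:**
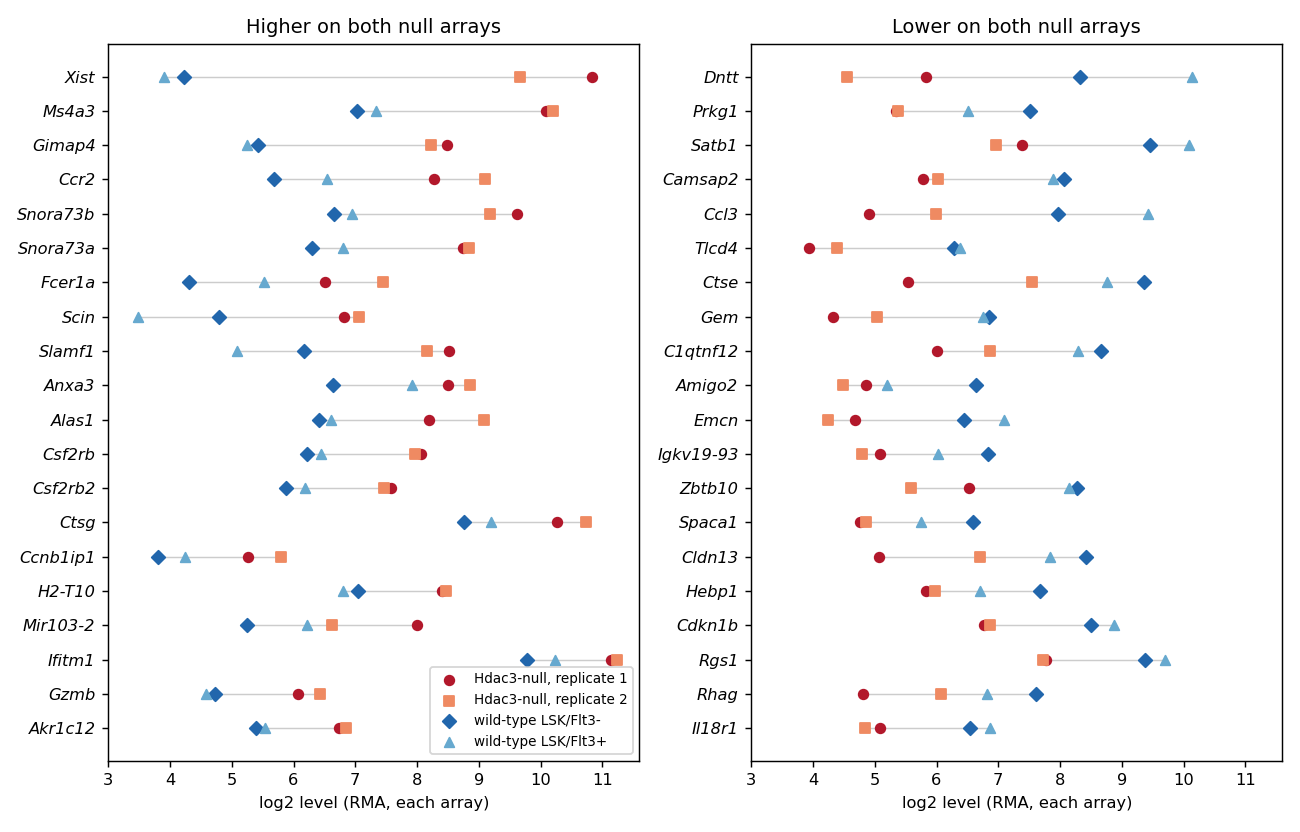
Log2 level on each array of the 20 named genes in each direction with the largest smaller-of-2 difference from wild-type LSK/Flt3-: null replicate 1 (dark red circles), null replicate 2 (orange squares), wild-type LSK/Flt3- (dark blue diamonds) and wild-type LSK/Flt3+ (light blue triangles). For Ms4a3 the null arrays read 10.08 and 10.20 and the wild-type arrays 7.03 and 7.34; for Dntt they read 5.83 and 4.56 against 8.33 and 10.14.

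Gimap4, one of a cluster of immune-associated GTPase genes usually read in lymphocytes, stood at 8.48 and 8.22 in null cells against 5.43 and 5.25. It rose 7.58-fold (log2 difference 2.92 ± 0.36, SE; limma, adjusted p = 0.0480). The call was lost under 6 of 9 other settings, for example with an adjusted p of 0.326 after quantile normalization. Gimap7, which lies 2 measured genes away, stood at 8.34 and 7.71 against 6.45 and 6.83. Members of the cluster differed in direction. Gimap3 stood at 5.65 and 4.92 against 4.42 and 4.27, and Gimap5 lower, at 5.01 and 4.41 against 5.59, with 4.57 in LSK/Flt3+ cells. Of the 8 measured Gimap genes, 2 were 2-fold higher on both null arrays, 3 more were higher, 1 was lower and 2 had opposite signs. T cell and NK cell genes as a list held 0 of 25 members 2-fold apart in either direction.

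Some of the higher genes lie close to each other in gene order. Counting pairs within 2 measured genes of each other, the 50 higher genes held 5 pairs: Csf2rb, Csf2rb2 and Ncf4 lie side by side and give 3 of them, Gimap4 with Gimap7 the fourth and Snora73a with Snora73b the fifth. The 76 lower genes held 1 pair, the chemokine gene Ccl3 with Wfdc17. Pairs were not counted in other sets of genes, so these counts have no comparison. The class I genes H2-T10 and H2-T24, of the non-classical antigen-presenting family, were also both higher. H2-T10 stood at 8.41 and 8.47 against 7.04 and 6.80, and H2-T24 at 6.84 and 7.11 against 5.82 and 5.67. B2m, the invariant chain that class I molecules share, stood at 11.57 and 11.68 against 11.46 and 11.5. Of 10 measured genes of class I presentation, 2 were 2-fold higher and 0 lower. Sequence-related members of the H2-T, Gimap and Snora73 groups may share probes.

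Further genes with close null replicates included Scin, an actin-severing protein, at 6.81 and 7.05 against 4.79 and 3.48. F2r, the thrombin receptor PAR1, stood at 8.75 and 8.95 against 7.62 and 7.29. Ifitm1, an interferon-inducible membrane protein also found in stem cells, stood at 11.14 and 11.24 against 9.78 and 10.23, and its second probe set at 11.15 and 11.11 against 9.34 and 9.59. For each of these 3 genes both null values lay above both wild-type values. Macroh2a2, a histone variant of silent chromatin, stood at 7.65 and 7.55 in null cells, 6.52 in wild-type LSK/Flt3- cells and 7.24 in LSK/Flt3+ cells. BC018473, an RNA of unstated function, stood at 8.90 and 8.44 against 4.62 and 4.29 and rose 16.6-fold (log2 difference 4.05 ± 0.37, SE; limma, adjusted p = 0.00648).

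The small RNA genes gave a mixed picture. Snora73b and Snora73a, small nucleolar RNAs of the box H/ACA class, stood at 9.63 and 9.18 against 6.66 and 6.94, and at 8.74 and 8.84 against 6.29 and 6.81. These 2 were the members 2-fold higher on both null arrays among 51 measured small nucleolar RNA genes, and 0 were 2-fold lower. Over all 51 the null arrays parted: the median difference was 1.14 on replicate 1 and -0.01 on replicate 2, and 24 of the 51 were 2-fold higher on replicate 1 than on replicate 2. The list's median of 0.52 over both null arrays thus rests on replicate 1.

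Of 300 measured microRNA genes, 2 were 2-fold higher on both null arrays and 0 were lower, with medians of 0.33 and -0.02. Their mature products, from the RefSeq table for GRCm38.p6, are shown to identify them, 5′ to 3′ with the seed (bases 2 to 8) in capitals.
mmu-miR-103-3p, from Mir103-2, chr2:131288103-131288125, plus strand: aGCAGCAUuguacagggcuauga
mmu-miR-103-2-5p, from Mir103-2, chr2:131288066-131288088, plus strand: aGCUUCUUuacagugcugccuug
mmu-miR-15a-5p, from Mir15a, chr14:61632075-61632096, minus strand: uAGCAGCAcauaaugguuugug
mmu-miR-15a-3p, from Mir15a, chr14:61632038-61632059, minus strand: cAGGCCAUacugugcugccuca
The 4 seeds differ, but those of miR-103-3p (GCAGCAU) and miR-15a-5p (AGCAGCA) hold the letters GCAGCA in common at shifted positions. Mir103-2 stood at 8.01 and 6.62 in null cells against 5.25 and 6.21, so its replicate 2 lay close to the LSK/Flt3+ value. Its paralog Mir103-1 stood at 4.27 and 4.02 against 3.76 and 3.89. Mir15a stood at 6.37 and 6.22 against 5.21 and 5.39, just past the 2-fold mark, and its cluster partner Mir16-1 at 3.97 and 4.71 against 3.74 and 3.85. The probe sets are named for the genes, and mature microRNAs were not measured.

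Some genes of lymphoid priming were among those lower in null cells. Dntt, which encodes the terminal transferase of V(D)J junctions, stood at 5.83 and 4.56 in null cells, 8.33 in wild-type LSK/Flt3- cells and 10.14 in LSK/Flt3+ cells. The difference was 8.80-fold, but the replicates lay more than 2-fold apart (log2 difference -3.14 ± 0.50, SE; limma, adjusted p = 0.149). Satb1, a chromatin organiser of early lymphoid cells, stood at 7.38 and 6.96 against 9.46 and 10.09. Vpreb1, part of the surrogate light chain of B cell precursors, stood at 6.59 and 7.02 against 8.15 and 8.13. Rag1, a subunit of the antigen receptor recombinase, was dim and less far apart, at 4.41 and 4.33 against 5.05 and 6.01. For all 4 genes both null values lay below both wild-type values. Of 26 measured lymphoid priming genes, 5 were 2-fold lower on both null arrays (Dntt, Satb1, Flt3, Vpreb1 and Wfdc17) and 0 were 2-fold higher. With a further 6 lower, 11 were lower on both and 5 higher, beside 19.9% and 41.3% of all genes. Another 10 had opposite signs, and the list's median was -0.21 on each null array. On the LSK/Flt3+ array the list's median difference from the same wild-type LSK/Flt3- array was 0.41. Because the null and LSK/Flt3+ differences share that array, no relation between them is given. The part of sort composition in these values was not tested.

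Of 15 listed B cell genes 0 were 2-fold apart on both null arrays, with medians of -0.03 and -0.18. Tox, a nuclear factor of lymphoid development, stood at 5.63 and 5.37 against 7.05 and 7.07. Cd69, an early activation antigen that holds cells in tissue, stood at 6.87 and 6.84 against 8.25 and 8.62. Rgs1, which damps signals of chemokine receptors, stood at 7.77 and 7.73 against 9.38 and 9.70. Replicates of the last 3 genes differed by less than 0.3 and lay below both wild-type arrays.

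Several of the lower genes belong to no single blood lineage. Prkg1, the cGMP-dependent protein kinase, stood at 5.35 and 5.38 against 7.52 and 6.52. Camsap2, which binds the minus ends of microtubules, stood at 5.78 and 6.02 against 8.06 and 7.89. Gem, a small GTPase that inhibits calcium channels, stood at 4.32 and 5.04 against 6.85 and 6.75. Each was more than 4-fold lower (4.46-fold for Prkg1 and Camsap2 and 4.50-fold for Gem), with limma adjusted p of 0.148, 0.174 and 0.213. Zbtb10, a zinc finger repressor, stood at 6.52 and 5.58 against 8.27 and 8.14. Amigo2, a cell adhesion protein, stood at 4.86 and 4.48 against 6.64 and 5.21. Hebp1, a heme-binding protein, stood at 5.83 and 5.97 against 7.67 and 6.71. Adgrl2, an adhesion receptor, has 8 probe sets: the one used stood at 8.22 and 7.86 against 9.42 in wild-type LSK/Flt3- cells, and 8.23 in LSK/Flt3+ cells. The LSK/Flt3+ value of that probe set lay beside the null values. Another Adgrl2 probe set stood at 5.76 and 5.62 against 6.78 and 6.28, below both wild-type arrays, and one at 5.75 and 5.14 against 5.15 and 5.19, with opposite signs.

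Erythroid genes were lower on both null arrays but very unequally. Rhag, the Rh-associated glycoprotein of the red cell membrane, stood at 4.80 and 6.07 against 7.61 and 6.82. Rhd, the related Rh antigen, stood at 4.67 and 5.85 against 7.23 and 6.67. Cldn13, a claudin of erythroblasts, stood at 5.08 and 6.71 against 8.42 and 7.83, and Ctse, a protease abundant in red cell precursors, at 5.54 and 7.54 against 9.37 and 8.76. In each of them replicate 1 was the lowest and replicate 2 lay between it and the wild-type arrays. Car1, carbonic anhydrase 1, showed this most, at 6.44 on replicate 1 and 10.92 on replicate 2, against 11.81 and 11.37. Of 24 measured erythroid genes, 6 were 2-fold lower on both null arrays and 0 higher. With another 10 lower, 16 were lower on both and 4 higher, beside 19.9% and 41.3% of all genes, and 4 had opposite signs. The median was -1.04 on replicate 1 and -0.39 on replicate 2, beside -0.42 on the LSK/Flt3+ array, and 10 of the 24 were 2-fold lower on replicate 1 than on replicate 2.

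The regulators of this lineage were less far apart than its membrane genes. Klf1, a master factor of red cell genes, stood at 6.09 and 6.46 against 6.44 and 6.20. Epor, the erythropoietin receptor, stood at 5.88 and 6.09 against 6.04 and 5.47. Gata1 had opposite signs, at 5.42 and 7.09 against 6.42 and 6.03. In none of these 3 did both null values lie on the same side of both wild-type values. Car2, in contrast to Car1, was higher than both wild-type arrays, at 10.73 and 11.10 with 9.61 in LSK/Flt3+ cells, and its differences from wild-type LSK/Flt3- were 0.73 and 1.11. Alas1, the housekeeping first enzyme of heme synthesis, stood at 8.19 and 9.08 against 6.41 and 6.61, a 4.70-fold difference (limma, adjusted p = 0.329). It was the single one of 12 heme synthesis genes that was 2-fold apart on both null arrays. Cpox, a later enzyme of the pathway, stood at 8.21 and 9.18 against 9.80 and 8.96.

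Genes of megakaryocytes and platelets also split by replicate. Vwf, the platelet adhesion factor, stood at 6.93 and 8.11 against 6.22 and 5.78. Ppbp, a platelet chemokine precursor, stood at 6.35 and 8.66 against 5.83 and 6.52. Pf4, platelet factor 4, was 2-fold lower on replicate 1 and 2-fold higher on replicate 2, at 7.31 and 10.04 against 8.72 and 9.20. Replicate 2 was thus the high array for these 3 genes. Itga2b, the platelet integrin chain, stood at 7.13 and 7.26 against 7.42 and 6.63, and Mmrn1, multimerin 1, at 4.88 and 4.86 against 5.76 and 4.95. Of the 23 measured genes, 1 (F2r) was 2-fold higher on both null arrays and 0 were lower. The median was 0.14 on replicate 1, close to the 0.15 of all genes, and 0.59 on replicate 2.

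**Figure D4:**
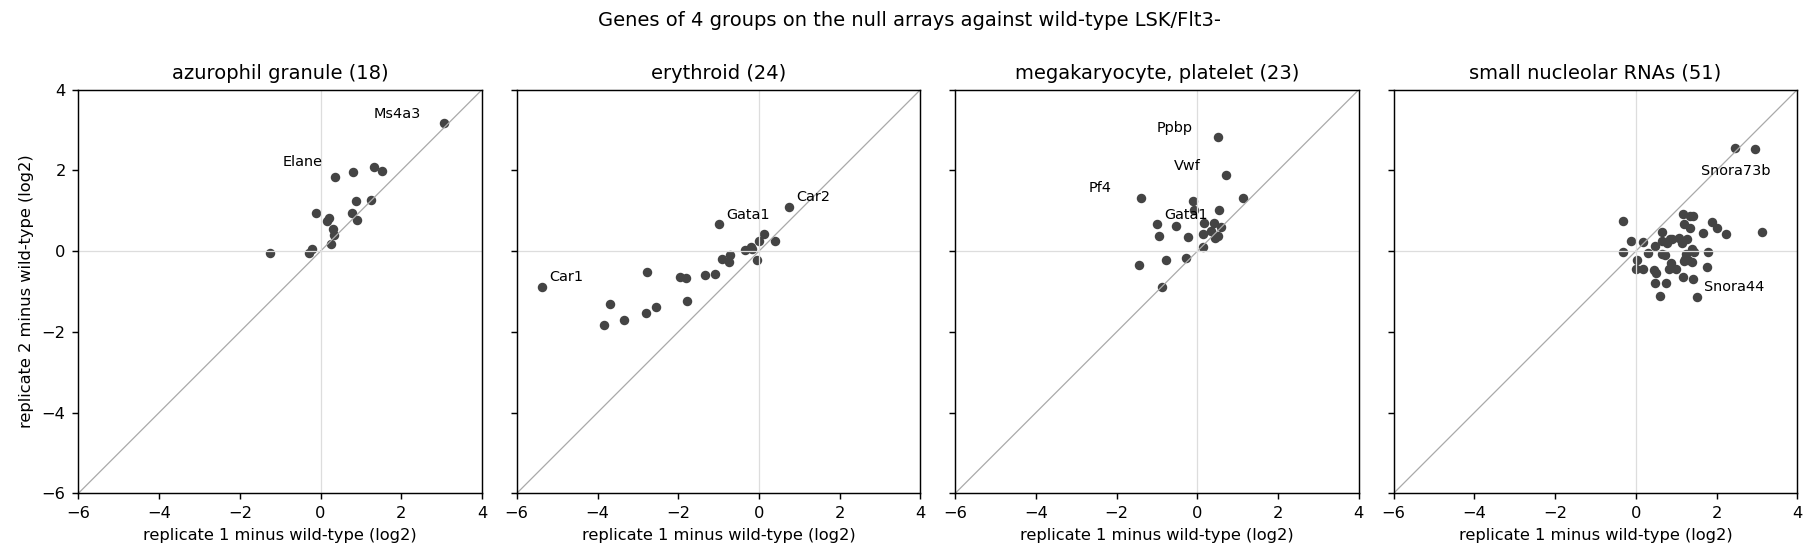
Log2 difference from wild-type LSK/Flt3- of each measured gene of 4 groups, on null replicate 1 (horizontal axis) and null replicate 2 (vertical axis); the diagonal marks equal differences. Erythroid genes extend to -5.37 on replicate 1 and lie above the diagonal there, small nucleolar RNAs spread along replicate 1 with a median of 1.14 against -0.01, and Ms4a3 lies near the diagonal.

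Genes of the stem cell state differed in both directions. Slamf1 (CD150), a surface marker of long-term stem cells, stood at 8.52 and 8.17 against 6.16 and 5.08. The difference was 4.53-fold (log2 2.18; limma, adjusted p = 0.174). Mecom, a transcription factor needed for stem cell maintenance, was lower on the probe set used, at 6.97 and 6.51 against 8.06 and 7.28. Its second probe set stood at 6.91 and 5.53 against 7.04 and 6.14, with replicate 1 above the LSK/Flt3+ value. Emcn (endomucin), a sialomucin on stem cells and endothelium, stood at 4.67 and 4.24 against 6.44 and 7.09. Procr (EPCR) stood at 6.24 and 5.75 against 5.63 and 5.46, and Hlf, a stem cell transcription factor, at 8.68 and 8.07 against 9.07 and 8.97. Cd48, which long-term stem cells lack and multipotent progenitors carry, stood at 10.41 and 10.54 in null cells, 9.53 in wild-type LSK/Flt3- and 10.15 in LSK/Flt3+ cells. Slamf1, Procr and Cd48 were thus above, and Emcn, Hlf and the Mecom probe set used below, both wild-type arrays. Runx1, a factor of stem cell emergence, stood at 9.30 and 9.20 against 8.49 and 8.90, and Gfi1b at 7.52 and 7.93 against 8.67 and 8.10. Of 23 measured stem cell regulators 0 were 2-fold higher and 1 (Mecom) was lower on both null arrays. Of 23 other surface genes of stem cells, 0 were 2-fold higher and 1 (Emcn) was lower, with medians of 0.03 and 0.11.

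Stress and activation genes were mostly lower. Jun, an AP-1 subunit, stood at 7.68 and 8.08 against 9.23 and 9.19, and Fos, its partner, at 6.07 and 5.93 against 6.83 and 7.41. The orphan nuclear receptor gene Nr4a2 stood at 5.57 and 5.47 against 6.63 and 6.57, and Klf6 at 7.32 and 7.39 against 8.31 and 8.40. In all 4 the null arrays were below both wild-type arrays. Of 27 measured immediate early genes, 2 were 2-fold lower on both null arrays (Jun and Nr4a2) and 0 higher. In direction alone 15 were lower on both and 4 higher, beside 19.9% and 41.3% of all genes. The list's medians were -0.27 and -0.40. The inflammatory chemokine gene Ccl3 stood at 4.91 and 6.00 against 7.96 and 9.42, and the cytokine gene Il1b at 5.88 and 5.59 against 7.18 and 8.34. They were the 2 of 23 chemokine and inflammatory genes that were 2-fold lower on both null arrays. Hspa1a, an inducible HSP70 chaperone, stood at 6.47 and 6.70 against 8.05 and 9.30, and Hsph1, its exchange factor, at 8.75 and 8.92 against 9.84 and 9.68. Of 16 heat shock genes, 11 were lower on both null arrays and 0 higher, beside 19.9% and 41.3% of all genes.

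Hspa8, the constitutive member of that chaperone family, gave readings that depended on the probe set and is named here after its values were seen. The probe set used for the gene stood at 12.32 and 11.97 against 12.14 and 12.10, and a second one at 12.02 and 11.88 against 12.07 and 11.94. The third stood at 9.56 and 9.64 on the null arrays against 12.54 and 12.24. With every probe set tested on its own, this one was called lower (log2 difference -2.94 ± 0.28, SE; limma, adjusted p = 0.0165), the single lower call in that setting. The files do not say what part of the locus each probe set reads.

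Interferon response genes were lower in number and by small amounts. Bst2 (tetherin), which holds budding viruses at the membrane, stood at 6.83 and 6.80 against 7.87 and 8.03. Oasl2 stood at 7.27 and 6.97 against 8.30 and 7.68, and Ifih1, the sensor MDA5 of double-stranded RNA, at 7.21 and 7.32 against 8.16 and 7.94. All 3 lay below both wild-type arrays. Of 25 measured genes, 17 were lower on both null arrays, 1 was higher and 7 had opposite signs. The shares of all genes were 19.9% lower and 41.3% higher. Of the 25, 2 (Bst2 and Oasl2) were 2-fold lower. The medians were -0.27 and -0.41, against 0.15 and 0.03 for all genes. Of the 7 Ifitm genes, 1 (Ifitm1) was 2-fold higher and 0 lower.

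Genes of DNA replication, the subject of the study's title, gave counts near the shares of all genes. None of the 55 measured genes was 2-fold apart on both null arrays, beside 0.251% of all genes higher and 0.381% lower. Of the 55, 0 passed at an unadjusted limma p under 0.05, beside 1.1% of all genes higher and 1.3% lower. Counts of 0 in a list of this size are therefore no result about these genes. On both arrays 14 were higher and 21 lower, and 20 had opposite signs, with medians of -0.15 and 0.02. Ranked by the smaller of the 2 differences, Clspn (claspin), an adaptor of the replication checkpoint, came first, at 8.46 and 8.44 against 8.93 and 8.29. Rfc2, part of the clamp loader, stood at 8.62 and 8.62 against 8.17 and 8.26, and Orc2, of the origin recognition complex, at 8.66 and 8.66 against 9.10 and 8.69. The median standard error of a difference over all genes was 0.34, so differences of this size were not detectable. Of 18 nucleotide synthesis genes and 34 mitosis genes, 0 were 2-fold apart on both null arrays.

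Of 7 measured cell cycle inhibitors, 2 were 2-fold apart on both null arrays, while the list's medians were -0.14 and -0.01. Cdkn1b (p27), an inhibitor of cyclin-dependent kinases, stood at 6.76 and 6.86 against 8.50 and 8.87, but its second probe set at 7.05 and 6.99 against 7.44 and 7.3. The probe sets thus shared a direction and differed in size. Cdkn2c (p18), which inhibits CDK4 and CDK6, stood at 4.23 and 4.87 against 6.07 and 6.5. Cdkn1b and Cdkn2c were the 2 that were 2-fold apart, and both were lower. In direction alone 4 of the 7 were lower on both null arrays, 2 (Cdkn2a and Cdkn2b) were higher and 1 had opposite signs. On the side of G1 entry, Ccne1 (cyclin E1) stood at 6.77 and 6.68 against 7.62 and 6.94, and Tfdp1, the E2F partner DP1, at 10.01 and 10.01 against 9.45 and 9.24. Of 23 G1 and S regulators 0 were 2-fold apart.

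Among 23 genes of DNA damage signalling and p53 targets, Xrcc5 (Ku80), which binds broken DNA ends, was the single member 2-fold apart on both null arrays. It stood at 7.70 and 8.03 in null cells, 9.04 in wild-type LSK/Flt3- and 8.15 in LSK/Flt3+ cells, so the wild-type LSK/Flt3- array was the high one. Prkdc, the kinase that Ku recruits, stood at 8.62 and 8.29 against 7.95 and 7.72. The p53 targets Zmat3 and Phlda3 stood at 5.28 and 5.14 against 4.60 and 4.44, and at 5.80 and 5.92 against 5.27 and 5.46. Their null values lay above both wild-type values by less than 2-fold. Bcl2, the survival factor, stood at 8.18 and 8.47 against 9.05 and 9.07, and 0 of 14 measured BCL2 family genes were 2-fold apart.

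Of 22 measured genes of deacetylases and corepressor complexes, Hdac3 included, 0 were 2-fold apart on both null arrays, 7 were higher and 8 lower. Tbl1xr1, a core subunit of the NCoR and SMRT complexes, stood at 10.30 and 10.27 against 9.99 and 10.06, and its paralog Tbl1x at 9.04 and 9.27 against 8.75 and 8.93. Hdac2 stood at 10.74 and 10.71 against 11.02 and 10.57. Of 28 circadian and nuclear receptor genes 0 were 2-fold apart, and Rora, a nuclear receptor of the clock loop, stood at 5.17 and 4.78 against 5.75 and 5.75. Lipid and cholesterol genes gave medians of 0.23 and 0.17, against 0.15 and 0.03 for all genes. On both null arrays 15 of the 26 were higher and 6 lower, beside 41.3% and 19.9% of all genes. Of these lipid genes, Lss (lanosterol synthase) stood at 5.43 and 5.52 against 4.90 and 5.33. Fdps, of the mevalonate pathway, stood at 7.49 and 7.53 against 7.03 and 6.97. Hox cluster genes held 0 of 37 members 2-fold apart, with medians of 0.28 and -0.01, and the median over both null arrays turned negative after centring, cyclic loess or quantile normalization.

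**Figure D5:**
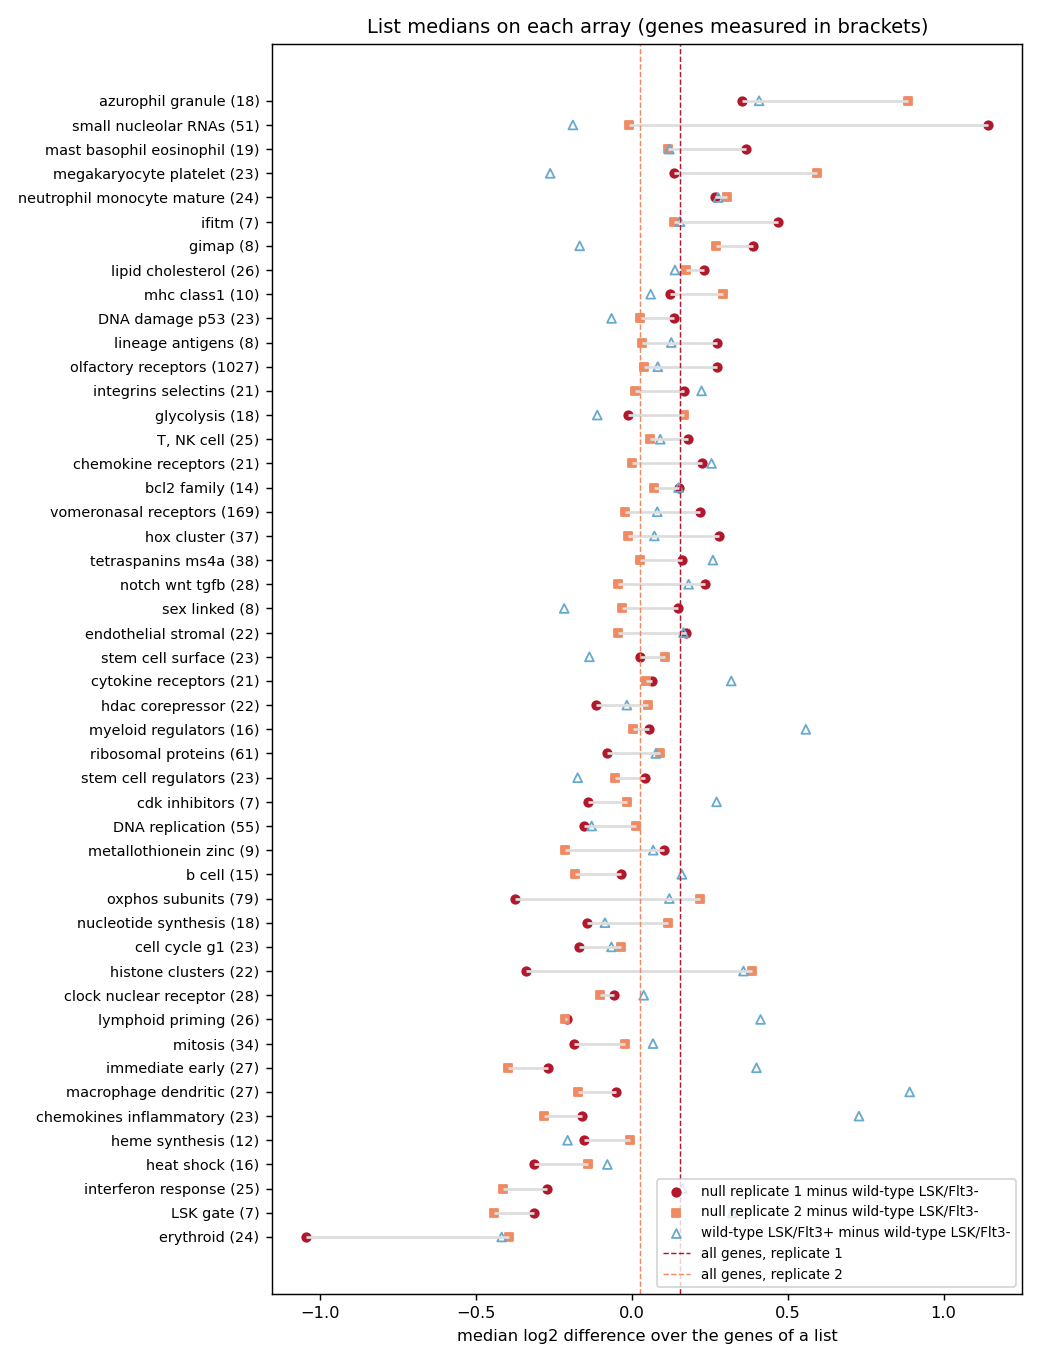
Median log2 difference from wild-type LSK/Flt3- (horizontal axis) over the measured genes of each of 48 lists, on null replicate 1 (circles), null replicate 2 (squares) and wild-type LSK/Flt3+ (open triangles), with dashed lines at the medians of all genes on the null arrays (0.15 and 0.03). Azurophil granule genes lie at 0.35 and 0.89, erythroid genes at -1.04 and -0.39, and small nucleolar RNAs part at 1.14 and -0.01; the 12 lists whose median over both null arrays changes sign under another scaling lie near the lines.

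Of the 48 lists, 36 kept the sign of their median over both null arrays under centring, cyclic loess and quantile normalization, and 16 had medians of opposite sign on the 2 null arrays. Genes that blood progenitors hardly read serve as a comparison. The 1027 olfactory receptor genes had medians of 0.28 and 0.04, with 540 higher and 84 lower on both null arrays, and 0 were 2-fold apart. A list median of that order on replicate 1 was thus also found among genes of sensory neurons.

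Sex-linked RNAs differed between the null and wild-type pools. Xist, the long RNA that silences one X chromosome in female cells, stood at 10.84 and 9.67 in null cells against 4.23 and 3.90, and rose by a log2 difference of 6.03 (± 0.48, SE; limma, adjusted p = 0.00362). The Y-linked gene Kdm5d stood at 8.02 and 7.31 against 8.66 and 8.32, Eif2s3y at 7.33 and 6.08 against 8.05 and 7.85, and Uty at 6.42 and 5.68 against 6.94 and 6.70. Replicate 1 held the highest Xist of the 4 arrays, and replicate 2 the lowest Y-linked values. Of genes that escape inactivation of the X, Kdm6a stood at 8.19 and 7.94 against 7.49 and 7.43 and Eif2s3x at 11.17 and 11.47 against 10.85 and 10.79. The sex of the pooled mice is not in the labels used here. High Xist divided the 4 arrays as genotype did. The part of sex in the other results therefore cannot be told apart from that of genotype, and it was not tested.

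Markers of cells outside the gate were low on the null arrays. Of 27 macrophage and dendritic cell genes, 1 (Cd68) was 2-fold higher and 2 (Flt3 and Bst2, also counted in other lists) were lower on both null arrays. They had mean levels of 5.16 and 5.10 on the null arrays, 5.34 in wild-type LSK/Flt3- and 6.54 in LSK/Flt3+ cells. C1qc, a complement chain of macrophages, stood at 3.59 and 4.05 in null cells, 4.89 in wild-type LSK/Flt3- and 8.18 in LSK/Flt3+ cells, so the LSK/Flt3+ array was the one that held this program. Mean levels of 15 B cell genes were 5.20 and 5.01 against 5.21 and 5.49, and those of 25 T and NK cell genes 4.95 and 4.71 against 4.68 and 4.77. Those of 22 endothelial and stromal genes were 5.33 and 5.10 against 5.22 and 5.37. The part of contaminating cells in the results was not tested.

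The 2-fold rule has a sharp edge. Just inside it on the higher side lay Mir15a and H2-T24, each with a smaller difference of 1.02, and just outside Tmem273 (0.99) and Fndc3b (0.98). On the lower side Xrcc5 (-1.01) and Nudt9 (-1.0) lay inside, and Abcb4, whose unrounded difference did not reach the mark, and Ext1 (-0.98) outside. Genes near this edge, such as Mir15a and Xrcc5, are not distinguished from their neighbours beyond it.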

How the data were processed

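The authors deposited log2 levels for each probe set, which RMA and affy 1.23 produced according to the submitters' processing notes. RNA came from the PerfectPure kit and was labelled with biotin, per the labels' protocols. Not given in the sources used here are the genome build, scan batches and detection calls. Medians of the 35556 probe sets differed between arrays, at 5.60 and 5.30 for null replicates 1 and 2 and at 5.32 and 5.36 for wild-type LSK/Flt3- and LSK/Flt3+. Their scaling is thus not settled, and the number of arrays limits the precision. Of 23410 annotated probe sets 21789 had 1 symbol. The one with the highest mean over all arrays was used for each of 19938 genes, 999 of which had several.

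The test was a two-sided limma 3.58.1 fit in R 4.3.3 over the 4 arrays in 3 groups, with a mean-dependent prior and Benjamini-Hochberg adjustment. Residual degrees of freedom were 1 and prior ones 9.01, and the spread of a wild-type group with 1 array is taken from the null pair and the prior. The fit was tested on simulated data. Alternatives changed the prior, arrays, scaling, probe set rule and level filter, and left out each null replicate.

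Named were Hdac3, the called genes, up to 20 each way by the smaller of the 2 differences, up to 4 per list and 2 on each side of the 2-fold mark; other genes were chosen after their values were seen. Lists (747 measured genes, and 8 gene families) and comparison were chosen with earlier results of these data known. Promoters and microRNAs came from RefSeq tables for GRCm38.p6. Python 3.11.15 and pandas 2.3.3 made the tables.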

Additional observations from a re-analysis of the deposited data

Results flagged for a closer look

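Probe sets outside the gene comparison also held differences of 2-fold on both null arrays. Of 12146 probe sets that the platform's annotation does not list, 175 were 2-fold higher (1.44%) and 142 were 2-fold lower (1.17%) than on the wild-type LSK/Flt3- array. Their median difference was 0.27 on replicate 1 and -0.01 on replicate 2. Of 1621 probe sets that carry several gene symbols, 3 were 2-fold higher (0.185%) and 1 was 2-fold lower (0.0617%). They were singled out because they stood outside the comparison and passed the size used within it. The transcripts that the unlisted ones read were not identified here, and no cause was tested.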

How the results depend on the processing

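Against 4 genes called higher by limma, robust estimation called 12, centring the arrays 2, cyclic loess 2, quantile normalization 0 and every probe set on its own 2. Against 0 called lower (259 at an unadjusted p under 0.05), robust estimation called 13 and every probe set on its own 1. In the settings that gave fewer higher calls, Ms4a3 had an adjusted p of 0.0853 on centred arrays, 0.108 with loess, 0.326 with quantile scaling and 0.0539 with every probe set; Xist and BC018473 were lost after quantile normalization, at 0.131. Replicate 2 or 1 alone gave 133 to 267 genes 2-fold higher, against 50 on both, and 165 to 240 lower, against 76. Keeping genes whose mean level reached 6, and so testing fewer, left 50 that were 2-fold lower. The cause of the other differences was not tested. After centring, 38 of the 50 higher and 76 of the 76 lower genes were still counted, and after cyclic loess or quantile normalization 42 and 72. Over the named genes, 2117 comparisons kept their direction and side of the threshold, 21 passed it newly, 12 lost it, and 0 reversed. Leaving out a null replicate leaves no residual degrees of freedom, so those are values without a test. No paired analysis was possible because each wild-type group had 1 array. With these arrays, Gimap4 lay nearest the threshold, with adjusted p from 0.00116 to 0.326 over 9 settings.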

Other observations

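Some gene groups differed more between the null replicates than between either and the wild type. Of all genes, 291 were 2-fold lower and 272 were 2-fold higher on replicate 1 than on replicate 2. The widest gap was that of Gdpd3, a lysophospholipase D gene, at 4.05 on replicate 1 and 8.79 on replicate 2, against 4.21 and 4.26 on the wild-type LSK/Flt3- and LSK/Flt3+ arrays. Replicate 2 was thus the single high array for that gene. Subunits of the respiratory chain and ATP synthase (79 genes) had medians of -0.37 and 0.22, and clustered histone genes (22 genes) -0.34 and 0.39. In both groups 0 genes were 2-fold apart from wild-type LSK/Flt3- on both null arrays. Ribosomal protein genes (61 genes) had medians of -0.08 and 0.09. Snora44 was 2-fold higher on replicate 1 and 2-fold lower on replicate 2, at 9.53 and 6.89 against 8.02 and 7.69, the reverse of Pf4. No cause was tested.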
